A study of Mus musculus with 9 samples.

Results

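Prdm16 and 9 genes that encode its reported corepressor partners, Ctbp1, Ctbp2, Ehmt1, Ehmt2, Ski, Skil, Smad3, Hdac1 and Hdac2, were followed in the RNA of the E14.5 mouse cochlear duct. The 10 genes were taken by name, from proteins known to bind PRDM16, and each Ensembl identifier was matched to its mouse symbol, which gave 10 of the 54232 genes in the files. Bulk RNA-seq was available from 9 embryos, of which 3 were WT, 3 heterozygote for the Prdm16 cGT allele and 3 null for it, and each library held the pooled cochlear ducts of both ears of an embryo. The cGT allele is a germline gene trap on the FVB/NJ background, so every tissue of the null embryo carries it and not only the cochlear duct. No embryo received a treatment. The comparisons ask whether the RNA of the partners depends on the dose of Prdm16.

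PRDM16 is a zinc finger protein of the PR domain family that binds DNA and controls cell fate in brown fat, palate, heart and neural progenitors, and in the cochlea it marks Kölliker's organ, the transient epithelium medial to the sensory domain. Much of its repressive action runs through proteins that it recruits. CtBP1 and CtBP2 are corepressors that dock on a short peptide motif of PRDM16, EHMT1 and EHMT2 (GLP and G9a) form the enzyme that methylates lysine 9 of histone H3 in euchromatin, SKI and SKIL (SnoN) are related proto-oncoproteins that hold SMAD3, the receptor-activated effector of TGF-beta and activin, in a repressed state, and HDAC1 and HDAC2 are the deacetylases shared by several repressor complexes.

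Total counts ran from 24095322 to 30819118 per library. Values in CPM are counts scaled to a common library size with TMM factors, and a gene was called where its edgeR adjusted p was under 0.05 and its log2 fold change beyond 0.5 in either direction. Markers of all layers of the duct epithelium were present, among them Tecta and Fgf10 of Kölliker's organ, Sox2 of the prosensory domain and Epcam of otic epithelium, with no listed epithelial marker at 0. The summed level of 5 mesenchyme markers was 389.6, 791 and 1192 CPM in WT 1, WT 2 and null 3, and between 27.5 and 91.1 CPM in the other libraries. Null 3 also stood apart in 3 cartilage markers, which summed to 10943 CPM there and to between 4502 and 5499 CPM elsewhere. For members whose values moved with these libraries, the value among the 6 other libraries is given as well. WT 3 is the lone WT library among those 6, so comparisons with WT there rest on that embryo. The study's methods describe WT and heterozygote embryos as littermate controls of the null embryos, and no source used here ties a replicate number to a litter.

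Prdm16 was the one member to change. Of the 10 genes, 1 was called between null and WT cochlear ducts, where 1.71% of the 17168 genes tested were called. Between heterozygote and WT 1 of the 10 was called, beside 0.151% of 17269 genes, and between null and heterozygote 1 of the 10, beside 0.615% of 17067 genes. In each comparison that gene was Prdm16, the targeted gene, and none of the 9 partners was called in any of them. The count of edgeR p-values under 0.05 before adjustment over the 9 partners was 0 between null and WT, 2 between heterozygote and WT and 1 between null and heterozygote, beside 12.2%, 13.1% and 11.4% of all genes tested. DESeq2 called none of the 9 partners in any comparison either, beside 3.56%, 1.72% and 2.13% of all genes it tested in the same order.

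Prdm16 (ENSMUSG00000039410, mm10 chr4:154316125-154636873, minus strand) fell with each copy of the trapped allele. Its level was 225, 197 and 184 CPM in WT 1, 2 and 3. In the heterozygotes it was 151, 123 and 141 CPM, and in the null embryos 23.7, 19.1 and 27.4 CPM. The 3 groups did not overlap, and the lowest heterozygote lay above 113 CPM, the midpoint between the WT and null means. The heterozygote mean was 68.5% and the null mean 11.6% of the WT mean, so that 35.7% of the distance from WT to null was covered in heterozygotes. The interval behind the null loss was narrow, with a log2 fold change between -3.46 and -2.78 at 95% confidence. The heterozygote interval ran from -0.74 to -0.35. The call of the heterozygote held under 6 of 15 alternatives. Of 6 leave-one-out fits it held in 1, that without WT 3, and over the 6 the log2 fold change ranged from -0.61 to -0.46. It was also lost with a mean count over 100 (-0.54, adjusted p = 0.0541), with a fit over all 9 libraries (-0.55, adjusted p = 0.434), with the mesenchyme marker level as a covariate (-0.51, adjusted p = 0.45) and among the 6 libraries low in mesenchyme markers (-0.41, adjusted p = 1). Heterozygotes and null embryos differed by a log2 fold change of -2.57 (SE 0.148, adjusted p = 7.44e-04).

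The Prdm16 counts that remained in null embryos were well above the counting floor, with 574, 591 and 654 counts against 5030 to 6076 in WT. The files hold one count per gene, so where along the gene these reads lie was not analysed here. Summed markers of Kölliker's organ, the territory where Prdm16 is expressed, were 1847, 1750 and 1566 CPM in null embryos and between 3030 and 3789 CPM in WT, and all 4 of these markers were called lower. The part of this difference in the Prdm16 loss was not tested, and in bulk RNA fewer cells of a type and less RNA per cell cannot be told apart. The markers summed were Tecta, Fgf10, Efhd1 and Clic6. The study had already reported each of them as lower in null cochleae, so their fall need not hold for other genes of the territory. Tectb was not among these markers. The study lists Tectb for both Kölliker's organ and the prosensory domain, and reports it as higher in null cochleae.

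**Figure D1:**
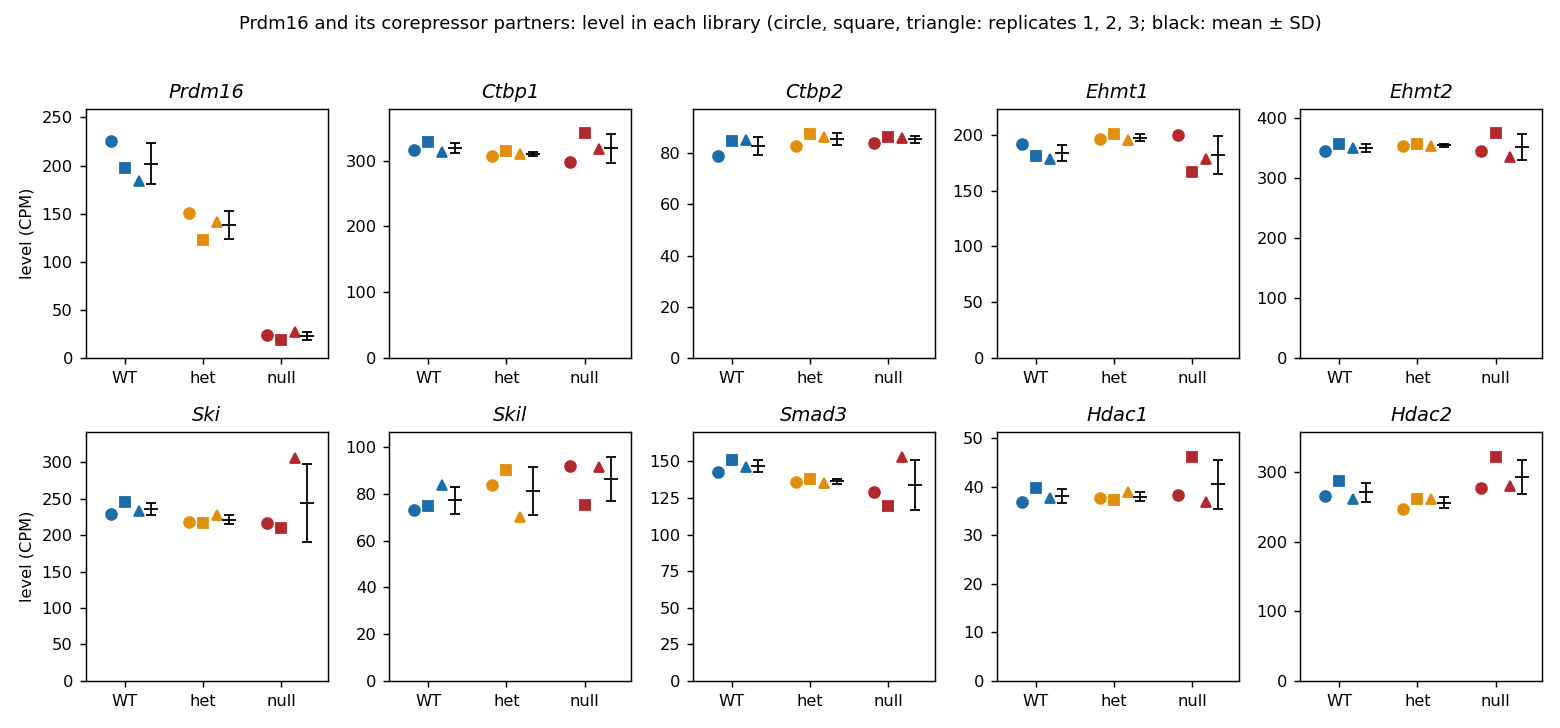
Level of Prdm16 and the 9 partners in CPM, from 0, in each of the 9 libraries, with WT, heterozygote (het) and null embryos from left to right in each panel. Circle, square and triangle are replicates 1, 2 and 3 and the black bar is the mean ± SD of 3 embryos. Prdm16 steps from 184 to 225 CPM in WT down to 19.1 to 27.4 CPM in null embryos, while the null and WT values of every partner overlap, and the null 3 triangle stands out for Ski at 305 CPM.

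The surroundings of the trapped gene were examined because its start site faces that of another transcript. The start of Prdm16 lies at base 154636873 on the minus strand and that of Prdm16os, a RefSeq transcript, at 154637580 on the plus strand, 707 bases apart. GENCODE, and with it the count files, has the antisense gene Gm13111 there, from 154637576 on the plus strand. The 250 bases before each start are shown, 5' to 3' on the strand of the gene, from RefSeq on GRCm38.p6, with the GC box GGGCGG or its reverse complement CCGCCC in capitals. The Prdm16 window is chr4:154636874-154637123 and the Prdm16os window chr4:154637330-154637579.
Prdm16: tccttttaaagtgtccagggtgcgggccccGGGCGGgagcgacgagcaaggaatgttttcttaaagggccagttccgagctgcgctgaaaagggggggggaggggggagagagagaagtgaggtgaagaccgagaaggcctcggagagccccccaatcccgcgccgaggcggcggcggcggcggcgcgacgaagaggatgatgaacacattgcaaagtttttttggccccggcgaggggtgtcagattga
Prdm16os: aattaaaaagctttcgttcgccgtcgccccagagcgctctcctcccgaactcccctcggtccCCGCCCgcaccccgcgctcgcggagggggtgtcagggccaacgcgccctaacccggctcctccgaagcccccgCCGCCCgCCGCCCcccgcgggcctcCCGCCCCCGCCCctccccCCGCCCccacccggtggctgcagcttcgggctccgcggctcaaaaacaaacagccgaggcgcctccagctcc
The Prdm16 window held 1 GC box and the Prdm16os window 6, and 32.7% of 32851 mouse windows of 250 bases held at least 1. GC content was 62.4% and 74.8% in these windows, where the median window had 52.4%. Neither of them held CAGAC or its reverse complement GTCTG, the core letters of the SMAD box, which 42.2% of all windows held, nor CAGGTG or CACCTG, the E-box bound by the ZEB repressors that recruit CtBP, which 17.2% held. RefSeq windows were matched for 8 of the 10 members, Skil and Hdac1 being the others. The Ski window had 87.6% GC and 5 GC boxes, and the richer of the 2 Ehmt2 windows 84% GC and 4 GC boxes. Ehmt1 held 1 SMAD box core and 1 E-box, Ctbp1 held 1 SMAD box core, and Ctbp2, which has 2 windows, held 3 SMAD box cores in one window and none of the 3 motifs in the other. A match of letters is a description and not a bound site.

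Gm13111 was lower in null embryos. Its level was 53.5, 48.9 and 38.3 CPM in WT, 48.1, 43.6 and 45.6 CPM in heterozygotes and 33.7, 27.6 and 28.8 CPM in null embryos. The null values lay below all the others, and the heterozygotes lay within the WT range. Against heterozygotes Gm13111 was called (log2 fold change -0.61, SE 0.102, adjusted p = 0.0481), and against WT it missed the threshold (log2 fold change -0.65, SE 0.143, adjusted p = 0.0811). The call against heterozygotes was lost without any one heterozygote (adjusted p = 0.192 to 0.291) and without null 2 (0.0808) or null 3 (0.0582). DESeq2 called the difference from WT (adjusted p = 0.00141). Among the 6 libraries low in mesenchyme markers that difference was -0.32, with WT 3 as the lone WT library. WT 3 was also the lowest WT library for Gm13111. The heterozygote value against WT was -0.03 (SE 0.11, adjusted p = 0.931), and a 95% interval from -0.28 to 0.21 bounds it.

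The other neighbour that was called lies within Prdm16. B230104I21Rik, on the opposite strand, had 21, 42 and 48 counts in WT, 31, 22 and 12 in heterozygotes and 0, 1 and 1 in null embryos. Over all 3 embryos the null group held 2 counts where WT held 111, a rate of 1.87% of WT with an exact 95% interval from 0.223% to 6.91% that covers counting error only. It was called lower against WT (adjusted p = 0.00802) and against heterozygotes (adjusted p = 0.0431), but without WT 2 the first adjusted p was 0.0602, and without any one heterozygote, null 1 or null 2 the second was between 0.0903 and 0.205. Its second exon, of 109 bases, lies in exonic sequence of Prdm16, and the use of strand in the counting is not given, so its reads and those of Prdm16 cannot be told apart there.

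Within 1 Mb on each side of Prdm16, 56 genes were annotated and 35 were tested between null and WT. Of these 1 was called lower and 0 higher, where 0.786% of all genes tested were called lower, and 6 (17.1%) had an unadjusted p under 0.05, beside 12.2% of all genes tested. The median log2 fold change of the 35 was -0.0573, with 12 positive and 23 negative, where all genes tested split into 8912 and 8256. Plch2, a phospholipase C gene 346 kb away, went from 50.7, 45.3 and 53.5 CPM in WT to 34.7, 37 and 34.4 CPM in null embryos, or by -0.50 on the log2 scale, with an adjusted p of 0.0456 that fell just inside the fold limit and was not called. Arhgef16, the nearest tested protein-coding gene outside it at 14.4 kb, had a log2 fold change of 0.19 (SE 0.107, adjusted p = 0.544). Hes5, a Notch target gene 324 kb away, was at 0.666, 0.431 and 0.678 CPM in WT, 0.682, 0 and 0.292 CPM in heterozygotes and 0, 0.129 and 0 CPM in null embryos, all below WT. Its null counts summed to 4 where WT had 49, a rate of 8.46% of WT with an exact 95% counting interval from 2.22% to 23.1%. It was not called by edgeR (adjusted p = 0.121), and DESeq2 called it (adjusted p = 0.0431). Ski, itself one of the partners, lies 517 kb from Prdm16 on the same strand.

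**Figure D2:**
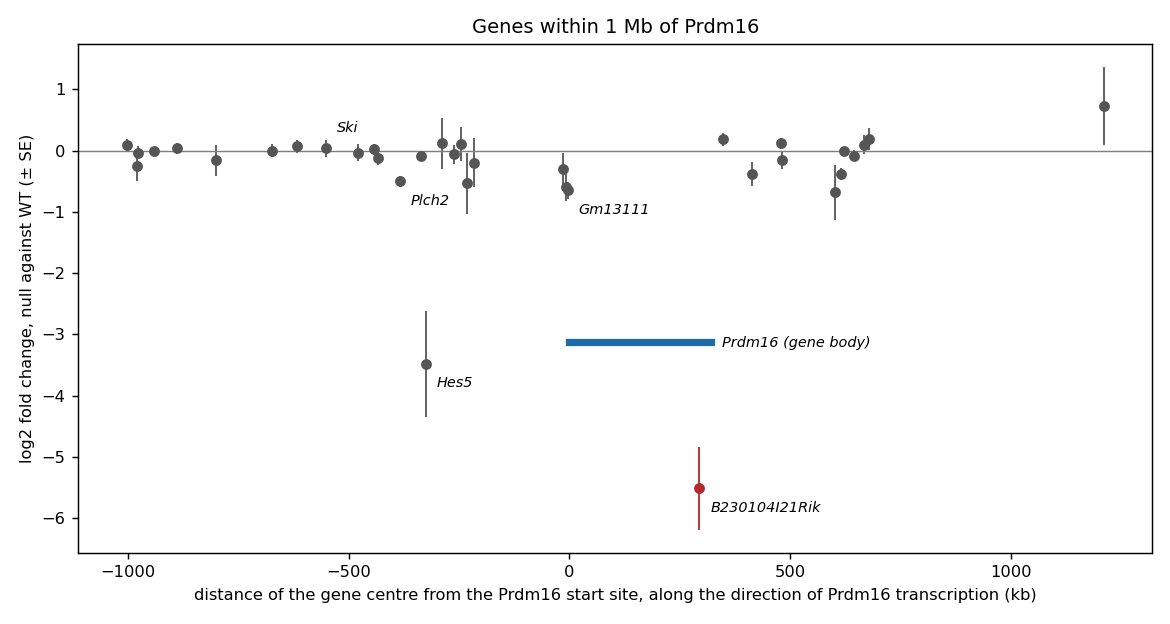
Log2 fold change of null against WT (points, with SE bars) for the 35 tested genes within 1 Mb of Prdm16, against the distance of each gene's centre from the Prdm16 start site in kb, positive along the direction of Prdm16 transcription. Called genes are red and the blue bar is the Prdm16 gene body at its own value of -3.12. B230104I21Rik, inside the gene body, is the red point, and most other neighbours sit near 0 around a median of -0.0573.

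Neither CtBP gene was called in any comparison. Ctbp1 (ENSMUSG00000037373) was 316, 328 and 313 CPM in WT, 307, 314 and 309.9 CPM in heterozygotes and 298, 342 and 317 CPM in null embryos. The null values spread on both sides of the WT range, and null 2 was the highest of all. The log2 fold change of null against WT was -0.01 with a 95% interval from -0.19 to 0.18 (SE 0.078, adjusted p = 0.985). Ctbp2 (ENSMUSG00000030970) was 78.7, 84.6 and 84.9 CPM in WT, 82.7, 87.5 and 86.1 CPM in heterozygotes and 83.9, 86.3 and 85.7 CPM in null embryos. The lowest value was WT 1 and the 3 genotypes overlapped. Its log2 fold change was 0.04 with an interval from -0.12 to 0.20 (SE 0.0699, adjusted p = 0.861), and it varied least of the 10 genes across the 9 libraries, with 1.11-fold between the highest and the lowest. In its annotation 314 exonic bases, or 5.05%, are shared with Fgfr2 on the same strand.

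The histone methyltransferase genes also overlapped between null and WT. Ehmt1 (ENSMUSG00000036893) was 192, 181 and 178 CPM in WT, 196, 201 and 195 CPM in heterozygotes and 199.9, 167 and 178 CPM in null embryos. Heterozygotes lay above all WT embryos, whereas null embryos reached both above and below them. The heterozygote difference from WT was 0.10 on the log2 scale (SE 0.0422, unadjusted p = 0.0344, adjusted p = 0.33), and that of null embryos -0.02 with an interval from -0.22 to 0.17 (adjusted p = 0.941). Ehmt2 (ENSMUSG00000013787), whose product is the catalytic partner of EHMT1, was 344, 357 and 349.9 CPM in WT, 353, 356 and 353 CPM in heterozygotes and 344, 375 and 335 CPM in null embryos. The null embryos held both the highest and the lowest value. Its null against WT interval ran from -0.18 to 0.17 (SE 0.0753, adjusted p = 0.992). In heterozygotes its SD was 0.461% of the mean, the tightest group of any member.

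Among the TGF-beta repressors and their target SMAD, single libraries set the spread. Ski (ENSMUSG00000029050) was 229, 245 and 233 CPM in WT, 218, 217 and 228 CPM in heterozygotes and 217, 209 and 305 CPM in null embryos. All heterozygotes were below all WT embryos, and the null embryos were split, with null 1 and null 2 below WT and null 3 above every other library. The log2 fold change of null against WT was 0.04 (95% interval -0.29 to 0.37, adjusted p = 0.927), and without null 3, the library high in mesenchyme and cartilage markers, it was -0.15 (adjusted p = 0.447). The part of those markers in the Ski value of null 3 was not tested. The mesenchyme alternatives differed in sign for Ski, at -0.12 among the libraries low in these markers (adjusted p = 0.753) and 0.13 with the marker level as a covariate (adjusted p = 0.616). Over the 6 leave-one-out fits it ranged from -0.15 to 0.15, the latter without null 2. The heterozygote difference from WT was -0.09 (SE 0.0433, adjusted p = 0.406).

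Skil (ENSMUSG00000027660), itself a gene induced by SMAD signalling, was 73.1, 74.9 and 84 CPM in WT, 83.7, 90.3 and 70.2 CPM in heterozygotes and 91.9, 75.5 and 91.6 CPM in null embryos. Null 1 and null 3 were the highest of the 9 libraries, and null 2 fell within the WT range. Its log2 fold change of 0.15 was the largest among the partners between null and WT, with an interval from -0.08 to 0.39 (SE 0.103, adjusted p = 0.613), and among the libraries low in mesenchyme markers, with WT 3 as the lone WT library, it was 0.00 (adjusted p = 1). With the covariate Skil was at 0.17, and without an embryo at 0.11 to 0.25. Smad3 (ENSMUSG00000032402) was 143, 151 and 146 CPM in WT, 136, 138 and 135 CPM in heterozygotes and 129, 119.6 and 153 CPM in null embryos. It was below all WT embryos in 3 of 3 heterozygotes and in 2 of 3 null embryos, with null 3 again the highest library. The null difference from WT was -0.14 (95% interval -0.37 to 0.09, adjusted p = 0.645), and the heterozygote difference was -0.10 (SE 0.0407, unadjusted p = 0.0282, adjusted p = 0.304). Without an embryo the null value ran from -0.24 (without null 3) to -0.06 (without null 2), and it was -0.23 among the libraries low in mesenchyme markers and -0.08 with their level as a covariate.

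Neither class I deacetylase was called in any comparison. Hdac1 (ENSMUSG00000028800) was 36.9, 39.7 and 37.7 CPM in WT, 37.6, 37.3 and 38.9 CPM in heterozygotes and 38.3, 46.1 and 36.9 CPM in null embryos. Apart from null 2 all libraries lay within a few CPM of each other. Null embryos differed from WT by 0.08 on the log2 scale (95% interval -0.17 to 0.33, adjusted p = 0.814). The Hdac1 value was -0.02 without null 2 and 0.15 without null 3, the ends of its leave-one-out range, 0.17 among the libraries low in mesenchyme markers and 0.04 with the covariate. Its level is uncertain, because 35.5% of its 3536 stretches of 50 bases, the read length, also occur in other transcripts, most of them in the processed pseudogene Gm10093, which carried 215 to 434 counts per library. Hdac2 (ENSMUSG00000019777) was 266, 287 and 261 CPM in WT, 247, 261 and 261 CPM in heterozygotes and 278, 322 and 279.6 CPM in null embryos. Null 2 was the highest, and all null embryos were above all heterozygotes while overlapping WT. The difference of null from heterozygote was 0.19 (95% interval 0.01 to 0.38, unadjusted p = 0.0427, adjusted p = 0.424), and that from WT 0.11 (95% interval -0.09 to 0.31, adjusted p = 0.686). The Hdac2 value against WT was 0.04 without null 2 and 0.16 without WT 2, the ends of its leave-one-out range, 0.21 among the libraries low in mesenchyme markers and 0.09 with the covariate.

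Null embryos did not separate from WT for any of the 9 partners, while 19% of all genes tested had groups that did not overlap. Between heterozygote and WT 3 of the 9 did not overlap, Ehmt1 above and Ski and Smad3 below, beside 18% of all genes, and between null and heterozygote Hdac2 was the 1 that did not overlap, beside 18.2%. The median absolute log2 fold change of the 9 partners was 0.0442 between null and WT, beside 0.152 over all genes tested. These medians are not matched for precision, as the median SE was 0.0869 for the partners and 0.153 for all genes tested. The 95% intervals of the 9 partners between null and WT spanned at most -0.37 to 0.39, so that for each of them a change as large as the fold limit of 0.5 lay outside its interval. Among the libraries low in mesenchyme markers the 9 log2 fold changes ran from -0.23 to 0.21 between null and WT and from -0.10 to 0.15 between heterozygote and WT. The bounds concern RNA and say nothing of protein level or of binding to PRDM16.

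**Figure D3:**
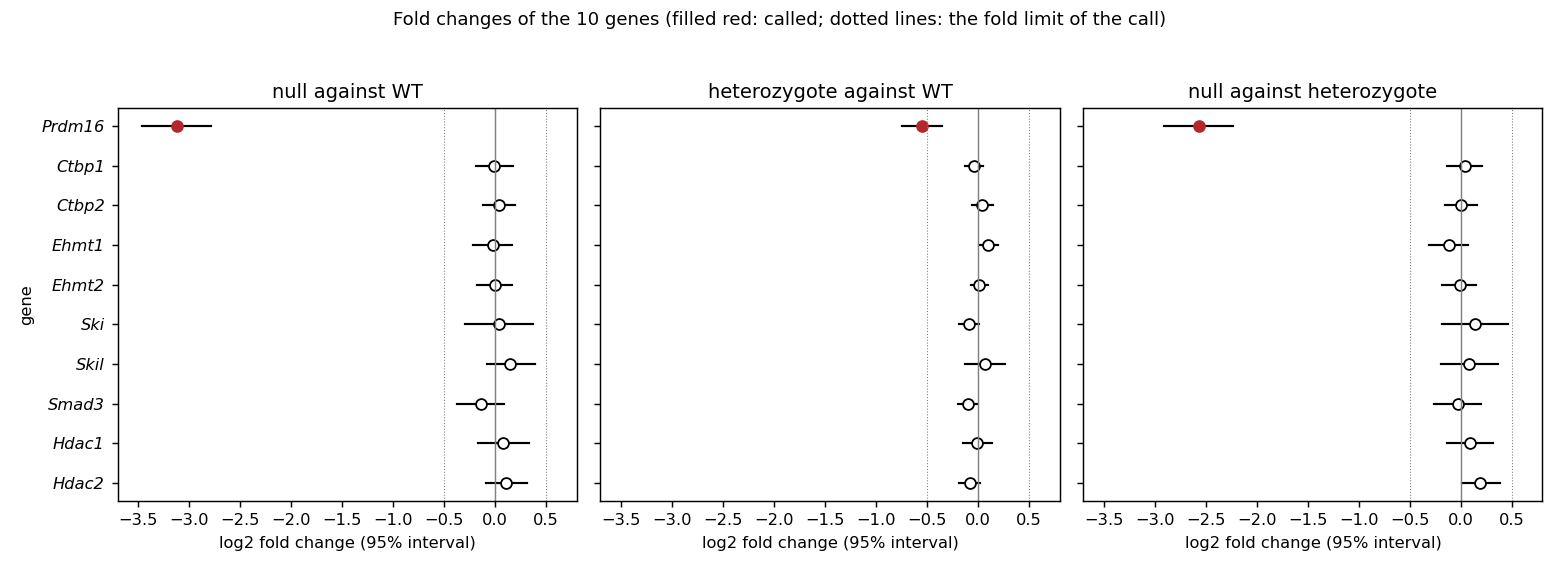
Log2 fold change of the 10 genes with 95% intervals (horizontal lines) in the 3 comparisons, red and filled where called, with dotted lines at the fold limit of 0.5. Prdm16 sits at -3.12, -0.55 and -2.57 from left to right, and the 9 partners lie around 0 in all 3 panels.

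Levels were also compared between genes per length, as RPKM (CPM per kb of merged exons). In WT the order of the mean levels was Ctbp1 at 71.3 ± 1.72 RPKM, Ehmt2 at 63.9 ± 1.18, Hdac2 at 60.7 ± 3.03, Ski at 42.4 ± 1.56, Smad3 at 26.5 ± 0.762, Ehmt1 at 22.6 ± 0.88, Prdm16 at 21.7 ± 2.25, Ctbp2 at 13.3 ± 0.56, Hdac1 at 11.1 ± 0.412 and Skil at 7.98 ± 0.603 RPKM (SD, n = 3 embryos). By merged exon length, neighbours in this order were separated in all WT libraries except Ehmt2 and Hdac2, and Ehmt1 and Prdm16, whose values overlapped. Merged exons exceed the longest transcript unequally, with 8116 against 5953 bases for Ehmt1 and 5542 against 5090 for Smad3. The order by other lengths was not examined and can differ. The place of Hdac1 below Ctbp2 holds only for the counts as deposited, since the shared stretches given above could have cost Hdac1 reads. Within each family one paralog was the more abundant, Ctbp1 over Ctbp2, Ehmt2 over Ehmt1, Hdac2 over Hdac1 and Ski over Skil. By its per-length level Prdm16 ranked above 86.2% of tested genes in WT, above 78.5% in heterozygotes and above 39.4% in null embryos. Ctbp1 RNA was 3.29-fold more abundant per length than Prdm16 in WT and 28.4-fold more abundant in null embryos.

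**Figure D4:**
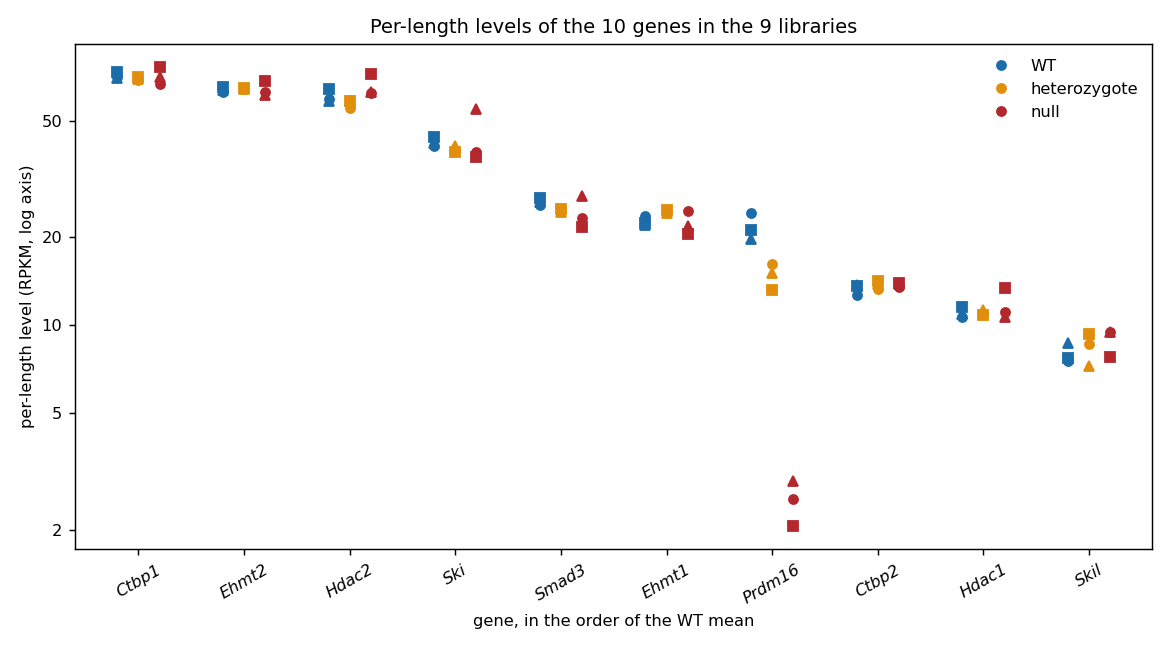
Per-length level in RPKM on a log axis for the 10 genes in the 9 libraries, ordered by the WT mean, with blue, orange and red for WT, heterozygote and null and circle, square and triangle for replicates 1 to 3. Prdm16 drops from 21.7 RPKM in WT to 2.51 RPKM in null embryos, below all 9 partners, whose values in the 3 genotypes lie close together.

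The balance within each family was compared as a ratio inside each library, which does not depend on the scaling between libraries. The log2 ratio of Ctbp1 to Ctbp2 was 2.42 ± 0.0617 in WT and 2.37 ± 0.0795 in null embryos, and that of Ehmt1 to Ehmt2 -1.50 ± 0.0761 and -1.52 ± 0.197. The ratio of Hdac1 to Hdac2 was -2.46 ± 0.0345 in WT and -2.49 ± 0.059 in null embryos, and that of Ski to Skil 2.41 ± 0.125 and 2.28 ± 0.246 (SD, n = 3 embryos each). The differences from WT of -0.05, -0.02, -0.03 and -0.13 were each smaller than the SD of the null embryos. A two-sided exact permutation test gave p = 0.5, 1, 0.4 and 0.6 (adjusted over the 4 ratios p = 0.8, 1, 0.8 and 0.8), but with 20 arrangements its smallest p is 0.1, so that it could not have passed the threshold and does not show that the balance was kept.

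The wider machinery around the partners was read from 11 lists of other genes, 106 in all. Of the 101 that were tested, 0 were called by edgeR in any comparison, while 10, 17 and 6 had an unadjusted p under 0.05 between null and WT, heterozygote and WT, and null and heterozygote. These counts are 9.9%, 16.8% and 5.94% of the 101, beside 12.2%, 13.1% and 11.4% of all genes tested, and the median difference of null from WT was -0.0204 on the log2 scale. DESeq2 called 1 of the 101 between null and WT, Hdac9, where it called 3.56% of all genes it tested. Between heterozygote and WT it called 3 of the 101, Zeb1, Zeb2 and Tgfbr2, all lower, beside 1.72% of all genes.

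In complexes with CtBP and EHMT, the list of 15 subunits that includes the demethylase Kdm1a and the bridging factors Rcor1 and Wiz had a median log2 fold change of -0.109 between null and WT. Leaving out an embryo moved this median between -0.123 (without null 3) and -0.0511 (without null 2). Zfp217, a zinc finger protein that binds CtBP, was 204, 189 and 200.3 CPM in WT, 236, 241 and 229.6 CPM in heterozygotes and 276, 225 and 226 CPM in null embryos. Its null and heterozygote values all lay above WT. Its log2 fold change was 0.29 in null embryos (adjusted p = 0.257) and 0.25 in heterozygotes (adjusted p = 0.0582), and neither was called. The lowest values of the list belonged to Zeb1 and Zeb2, repressors that are themselves expressed in mesenchyme, at -3.08 and -3.03 between heterozygote and WT (edgeR adjusted p = 0.0704 and 0.0715, and DESeq2 adjusted p = 0.00653 and 0.0217). Heterozygotes had mesenchyme marker sums of 37.2 to 78.2 CPM and WT of 91.1 to 791 CPM. The part of this difference in the ZEB values was not tested. With the marker level as a covariate 0 of the 15 listed subunits were called between heterozygote and WT, beside 0.0521% of all genes tested.

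The 12 subunits of NuRD, 13 of SIN3 and 6 of the NCoR and SMRT complexes, through which HDAC1, HDAC2 and HDAC3 act, had medians of -0.0247, 0.0664 and -0.0117 between null and WT. With an embryo left out the NuRD median ran from -0.0489 to 0.0142 and that of NCoR and SMRT from -0.0538 to 0.0493, so both changed sign. The SIN3 median ran from 0.0507 to 0.0937. The leading genes by unadjusted p were Mbd2, a reader of methylated DNA, at 0.23 (adjusted p = 0.38), Ing2, a reader of methylated histone H3, at 0.37 (adjusted p = 0.35), and Hdac3, the catalytic subunit of NCoR, at 0.26 (adjusted p = 0.276). Hdac3 was 176, 173 and 173 CPM in WT, 185, 182 and 178 CPM in heterozygotes and 202, 234 and 190.3 CPM in null embryos, an order without overlap that did not pass the adjusted threshold. Among the 9 other deacetylases the lowest was Hdac9, a class IIa enzyme, at 16.9, 17.1 and 17.1 CPM in WT, 11.8, 12.9 and 13.2 CPM in heterozygotes and 9.32, 8.71 and 13.8 CPM in null embryos. All heterozygote and null values were below WT. Hdac9 had a log2 fold change of -0.69 between null and WT (SE 0.187, adjusted p = 0.159) and -0.43 between heterozygote and WT (adjusted p = 0.0757). It was called between null and WT under 3 of 15 alternatives, which were DESeq2 (adjusted p = 0.0157), the fit without null 3 (-0.92, adjusted p = 0.0127) and the fit among the libraries low in mesenchyme markers (-0.92, adjusted p = 0.0428). With the marker level as a covariate it was at -0.59 and not called (adjusted p = 0.0713).
The 9 other writers and readers of H3K9 methylation, led by the heterochromatin protein Cbx1 at -0.15 (adjusted p = 0.488), had a median of -0.04.

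On the SMAD side, the 7 other SMADs had a median of 0.0996 between null and WT, led by the inhibitory Smad6 at 0.30 (adjusted p = 0.322). Of the SKI and DACH family Dach2 was at 0.49 (adjusted p = 0.295), and Skor1 and Skor2 had too few counts to be tested. The 13 tested ligands and receptors of TGF-beta and activin had a median of -0.0967, led by the activin receptor Acvr2a at -0.29 (adjusted p = 0.3). Tgfbr2, the type II receptor for TGF-beta, was at -0.70 between heterozygote and WT and was called by DESeq2 (adjusted p = 3.76e-04) but not by edgeR (adjusted p = 0.102). The 5 mesenchyme markers had a median of -3.04 in that comparison, and among the libraries low in them Tgfbr2 was at -0.21 (adjusted p = 1). Between null and WT it was at -0.65 (adjusted p = 0.505), and without null 3 at -1.14, where it was called (adjusted p = 0.043). That fit set null 1 and null 2, low in mesenchyme markers, against a WT group with both WT libraries high in them. Among the libraries low in these markers the value was -0.64 (adjusted p = 0.0994) and with their level as a covariate -0.40 (adjusted p = 0.125), and neither was called. The 8 SMAD3 target genes had a median of 0.241 between null and WT and of 0.367 between null and heterozygote, where 8 of 8 were positive and none was called, and 52.3% of all genes tested were positive. One of the 8 is Skil. The mesenchyme and cartilage markers had medians of 2.58 and 3.72 in that comparison, and their part in the values of the target genes was not tested. Among the libraries low in mesenchyme markers 6 of the 8 were positive with a median of 0.193, beside 51.1% of all genes, and without null 3 6 of 8 with a median of 0.187. Between null and WT the median among the libraries low in these markers was -0.00158, with 3 of 8 positive. Pmepa1, a feedback inhibitor of the pathway, was 19, 21.6 and 19.5 CPM in WT, 20.1, 20.8 and 20.5 CPM in heterozygotes and 24.7, 22.7 and 36.8 CPM in null embryos. Its null values were all above the other 6 libraries, with null 3 the highest. Its log2 fold change was 0.48 between null and WT (SE 0.187, adjusted p = 0.347), and without null 3 it was 0.24 (adjusted p = 0.38). It was called under 1 of 15 alternatives, the mesenchyme marker level as a covariate (0.59, adjusted p = 0.0388), and was at 0.29 among the libraries low in these markers (adjusted p = 0.576). The 10 tested coactivators and regulators of PRDM16 had a median of -0.0566, and Cebpb, its partner in brown fat, was at 0.51 (SE 0.254, adjusted p = 0.48), with Pparg and Hlx too low to be tested.

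**Figure D5:**
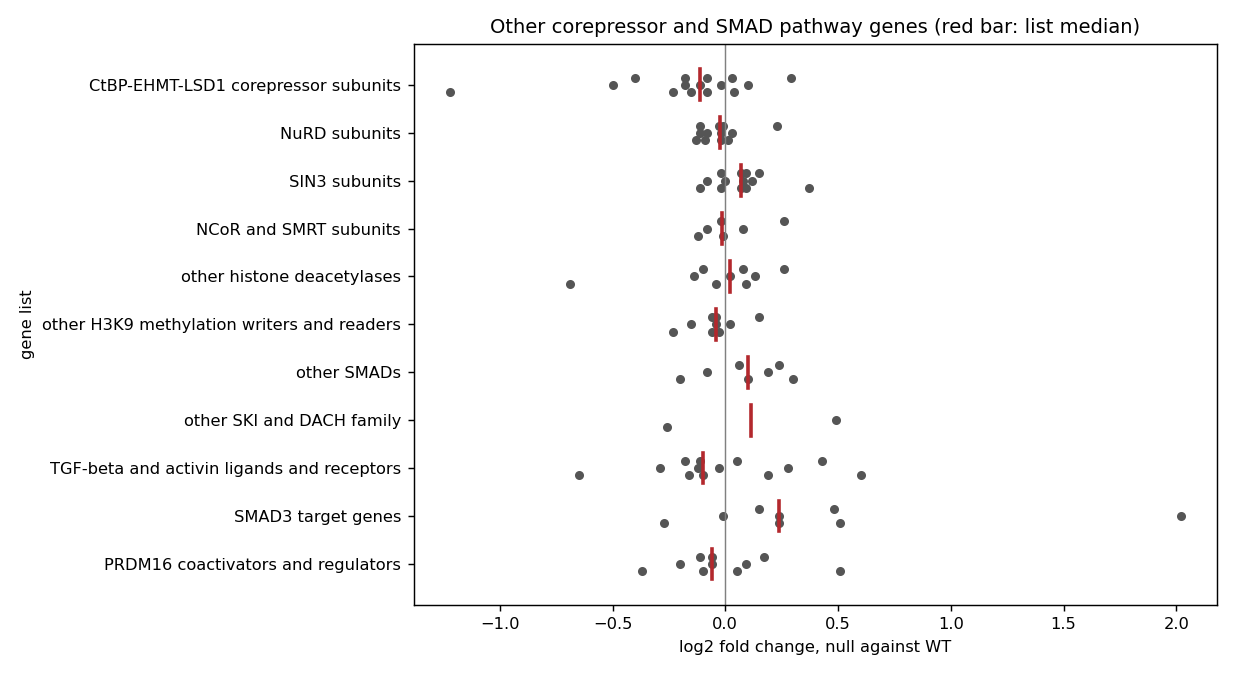
Log2 fold change of null against WT for each tested gene of the 11 lists (points) with the list median (red bar). Medians lie between -0.109 for CtBP, EHMT and LSD1 complex subunits and 0.241 for SMAD3 target genes, no point was called, and the lowest point is Zeb2 at -1.22.

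For each member the genes with the most similar profile of log2 CPM over the 9 libraries were found among 17796 others. These correlations describe libraries that share genotype and cell makeup. For Prdm16 they were 1500015O10Rik (r = 0.993), Myo5b (0.991), Upp1 (0.99), Nfasc (0.987) and Snap91 (0.987). Each of the 5 was lowest in the null embryos, and none was called between heterozygote and WT, where 1500015O10Rik and Snap91 overlapped. 1500015O10Rik went from 132, 128 and 115 CPM in WT through 117, 70.4 and 83 CPM in heterozygotes to 19.5, 16.4 and 19 CPM in null embryos. Upp1, which encodes uridine phosphorylase, went from 25.6, 21.2 and 15.4 CPM through 15.2, 7.38 and 11.5 CPM to 1.03, 1.16 and 1.59 CPM. For both, heterozygote values lay between WT and null except that 117 CPM of 1500015O10Rik reached the WT range.
For most partners the nearest genes were highest in one null library. Ski was closest to Itga9 (0.985) and Col5a1 (0.982), a fibrillar collagen gene that was at 361 CPM in null 3 and at 188 to 234 CPM elsewhere. Smad3 was closest to Lrrc8c (0.996) and Fbxl16 (0.987), which were also highest in null 3. Hdac1 was closest to the tubulin cofactors Tbcb (0.988) and Tbca (0.988), Hdac2 to Vps4a (0.982) and Ube2l3 (0.978), Ctbp1 to Nedd8 (0.983) and Ndufa2 (0.974) and Ehmt2 to Pcbp4 (0.973) and Ddx39b (0.962), all of which were highest in null 2. Ehmt1 was closest to Gm26836 (0.983) and Gm43980 (0.972), Skil to Cep152 (0.961) and Aldh1a3 (0.921), and Ctbp2 to Gm15640 (0.933) and Arl6ip6 (0.908).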

How the data were processed

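RNA was measured in 9 cochlear duct libraries, 3 per genotype. The authors prepared TruSeq mRNA libraries, aligned single reads of 50 bases to mm10 with STAR and deposited whole-number counts per Ensembl gene. Their methods name Cufflinks for annotation and the submitters' processing notes name cutadapt 1.13, HTSeq 0.6.1p1 and DESeq2, so the tool behind the counts is not settled, and they were taken as raw from their whole values and unequal totals. The strand setting and annotation release are not given in the sources used here. Symbols, positions and exon lengths came from GENCODE (mm10), where 54165 of the 54232 genes were found. Each pair of genotypes was tested with edgeR 4.0.16 in R 4.3.3 (TMM, filterByExpr with a minimum count of 10, quasi-likelihood test, Benjamini-Hochberg adjustment over all genes tested), a procedure tested on simulated data. The 10 members and the lists were chosen with earlier results of these data known. Named genes are the members, the neighbours, the gene with the smallest unadjusted p of each list, and the genes nearest to each member by Pearson correlation of log2 CPM (prior count 2), 5 for Prdm16 and 2 for each other. Zeb1, Zeb2, Tgfbr2 and Tgfbi were named after their values were seen. Alternatives were DESeq2 1.42.0, other scalings and filters, a fit over all 9 libraries, a block for the replicate number and leaving out each embryo. Depths of 24095322 to 30819118 counts and 3 embryos per genotype set the precision. Replicate numbers were not taken as pairs.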

Additional observations from a re-analysis of the deposited data

How the results depend on the processing

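Prdm16 was called between null and WT under all 15 alternatives (log2 fold change -3.24 to -2.98), and no partner was called under any alternative in any comparison. Between heterozygote and WT the Prdm16 call was lost, so that 0 of the 10 genes were called, with a mean count over 100 (-0.54, adjusted p = 0.0541), with the fit over all 9 libraries (-0.55, adjusted p = 0.434), with the mesenchyme marker level as a covariate (-0.51, adjusted p = 0.45), with the 6 libraries low in mesenchyme markers (-0.41, adjusted p = 1) and in 5 of 6 fits without an embryo. Over those 6 fits the value was -0.61 to -0.46 and 0 to 1 of the 10 genes were called, the 1 without WT 3. Both mesenchyme alternatives were chosen after seeing the data, and the second takes the lone WT library to vary like the others. The causes were not tested.

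Genes called between null and WT, heterozygote and WT, and null and heterozygote, 293, 26 and 105, became 609, 297 and 361 with DESeq2, 476, 684 and 366 without a filter, 468, 0 and 164 with the fit over all 9 libraries, 442, 9 and 257 with the covariate, and 208, 14 and 201 in the 6 libraries. Leaving out an embryo gave 68 to 446, 0 to 505 and 12 to 182. The correlations of same-numbered deviations, -0.285 to 0.202 over all pairs, did not pair the samples. With the replicate number as a block 133, 197 and 52 genes were called, 1 member in each comparison was called, and of the pathway lists Zeb1, Zeb2, Tgfbr2 and Tgfbi were lower between heterozygote and WT. Of all genes 1.14% were called there under the block. Without a filter 7 of 106 listed genes and 2.14% of all genes were called in that comparison, and without WT 3, which leaves the WT libraries high in mesenchyme markers, 6 of 102 and 2.86%. With all 9 libraries, where edgeR called 0 genes between heterozygote and WT, DESeq2 on 6 libraries called 297 and 13.1% of genes had an unadjusted p under 0.05 in their 6 libraries.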
